A study of Mus musculus with 97 samples.

Results

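The change in gene expression around birth in the labelled cortical lineage of control mice was described from 24 of the 97 libraries of this series. They are all the control-MADM libraries of the Cdk5r1 data set at embryonic day 16 (E16, 12 libraries) and on the day of birth (postnatal day 0, P0, 12 libraries). The members were chosen by the labels alone, genotype and age, and no measured value entered the choice. All came from CD1 mice of the genotype MADM-11 GT/TG;Emx1-Cre, which carries no mutant allele of Cdk5r1 or Dab1. MADM (mosaic analysis with double markers) joins the parts of a fluorescent protein by an exchange between the copies of a chromosome. Emx1-Cre starts this exchange in progenitors of the dorsal telencephalon, so that the green cells and their offspring include neurons and glia of the cortex, but only of the lineage and moment in which Cre acted. From 1 cerebral cortex per library, 2000 GFP+ cells were sorted into lysis buffer, and polyadenylated RNA was sequenced (SMART-Seq v2). The libraries are thus separate animals, and each is a mixture of all green cell types of that cortex. Further groups used for comparison are control-MADM at E13 (9 libraries), KO-Cdk5r1-MADM, in which all cells lack Cdk5r1 (11 libraries at E16, 10 at P0), and Cdk5r1-MADM, in which the green cells are mutant within a heterozygous cortex (8 and 6).

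As background, radial glia line the ventricle of the embryonic cortex and produce its projection neurons, partly through intermediate progenitors that divide once more before they differentiate. Deep-layer neurons are born first and upper-layer neurons later, and each migrates past its predecessors along radial fibres. Towards birth the same lineage turns from neurons to glia: astrocytes and precursors of oligodendrocytes appear, while the youngest neurons finish migration and begin to grow synapses.

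The values are counts of reads per gene, given here as CPM, the usual scaling of counts to each library's total on genes, after TMM scaling between libraries. The libraries held 867748 to 6946345 counts on genes at E16 and 3635070 to 5480448 at P0. Emx1, the gene whose promoter drives Cre, lay at 71.8 to 190.3 CPM (median 126) at E16 and at 46.2 to 90.4 CPM (median 73.1) at P0, and it fell with age (log2 fold change -0.88, SE 0.16, adjusted p = 0.000114). In a principal component analysis the first component (34.72% of the variance) placed 11 E16 libraries between -71.2 and -25.7, E16 replicate 12 at 0.27 and the P0 libraries between 11.8 and 46.2. On the second component (12.03%) E16 replicate 2 lay at -70.7 and the other E16 libraries between -28.8 and 40.5. E16 replicate 12 stood apart in markers of other cell types: its summed markers of erythroid cells came to 12701 CPM against at most 506 CPM in the other E16 libraries, of microglia to 1267 against 99.6 CPM, of interneurons to 1622 against 477 CPM, and of meninges and choroid plexus to 866 against 571 CPM. P0 replicate 3 had the lowest glial sums of its age. Results that rest on replicate 12 or on this library are given with and without it. Each age held 6 libraries of each of 2 mitochondrial classes (reads on mt-Nd3, or on Gm28438, an annotated gene of near-identical sequence), so class and age can be told apart.

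Between E16 and P0, 4792 of 13085 tested genes (36.6%) changed (edgeR's quasi-likelihood test, adjusted p under 0.05). The count was 2417 genes higher at P0 (18.5%) and 2375 lower (18.2%). The rises were larger than the falls: 988 genes rose by more than 1 on the log2 scale (7.55%) and 224 fell by more than 1 (1.71%). In 201 genes all 12 P0 libraries lay above all 12 E16 libraries (1.54% of those tested), and in 132 all lay below (1.01%). The median log2 fold change over all tested genes was -0.02, which is the level against which the lists below are read. A gene was tested where its mean count over both ages was above 10, so it could pass through the age in which it is high. By the libraries of 1 age alone, 12700 of the tested genes reached that minimum at E16, of which 16.9% rose, and 12853 at P0, of which 17.9% fell. Where a list described here has fewer risers or fallers by these counts, they are given beside it. Within the mt-Nd3 class 3772 genes were called and within the Gm28438 class 1782, with 6 libraries per age in each.

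Most tested astrocyte genes rose. Of 28 astrocyte genes listed 26 had enough counts to be tested, of which 25 rose and 1 did not pass the test (18.5% of all genes rose), and the median log2 fold change of the list was 2.29. In 12 of them all P0 libraries lay above all E16 libraries, as in 1.54% of all tested genes. Of the members that reached the count minimum in the E16 libraries, 23 of 24 rose (background 16.9%). Aqp4, the water channel of astrocyte end feet, was at 0.426 to 3.4 CPM (median 0.948) at E16 and at 7.25 to 91.1 CPM (median 46.4) at P0. Every P0 library lay above the highest E16 library, and the fold change was the largest of the list (log2 fold change 5.51, SE 0.36, adjusted p = 1.25e-11). Aldh1l1, a folate enzyme widely used to mark astrocytes, lay at 29.8 to 77 CPM (median 51.9) at E16 and at 100.2 to 429.8 CPM (median 309) at P0, again without overlap (log2 fold change 2.48, SE 0.20, adjusted p = 4.92e-10). Slc1a2, the glial glutamate transporter GLT-1, was at 18.1 to 50.1 CPM (median 28.3) at E16 and at 40.4 to 374 CPM (median 132) at P0 (log2 fold change 2.37, SE 0.28, adjusted p = 2.45e-07). Here the ages overlapped in part, and 11 of 12 P0 libraries exceeded all E16 libraries. Sparcl1 (hevin), a secreted protein through which astrocytes act on synapses, was at 35.6 to 76.3 CPM (median 45.4) at E16 and at 183 to 653 CPM (median 459) at P0 (log2 fold change 3.05, SE 0.19, adjusted p = 3.62e-12). Gfap, the intermediate filament of mature astrocytes, rose from a median of 6.38 to 86.2 CPM (log2 fold change 3.60, SE 0.38, adjusted p = 7.64e-08). The member that did not pass was Gja1 (connexin 43), with medians of 21.6 and 59.5 CPM and a log2 fold change of 0.32 (SE 0.53). Without E16 replicate 12 it rose (log2 fold change 1.52, adjusted p = 2.45e-05), and all 26 members then passed. Slc25a18, a mitochondrial glutamate carrier, ranked first by adjusted p among the genes tested. Its E16 libraries held 1.31 to 4.81 CPM (median 1.64), and its P0 libraries 16.1 to 93.1 CPM (median 52.4) (log2 fold change 4.72, SE 0.27, adjusted p = 8.43e-13). Gpr37l1, an astroglial receptor, was at 0 to 2.25 CPM (median 0.724) at E16 and at 6.99 to 76 CPM (median 31.7) at P0 (log2 fold change 5.34, SE 0.47, adjusted p = 2.64e-09). Itih3, a hyaluronan-binding secreted protein, had an E16 median of 0 (highest library 1.99 CPM) and reached 5.96 to 35.9 CPM (median 26.7) at P0.

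The summed level of the astrocyte markers, a simple measure of how much of a library's RNA these genes make up, was 2133 to 3940.4 CPM (median 2529) at E16 and 3718 to 17015 CPM (median 11285) at P0 (adjusted p = 0.0001 over 15 library measures, permutation test of the difference of means, two-sided, 100000 resamples). Of the 12 P0 libraries 11 exceeded all E16 libraries, and without E16 replicate 12, which had the highest E16 sum, all 12 did. P0 replicate 3 was the lowest of its age at 3718 CPM. In such bulk samples more cells of a type and more RNA per cell cannot be told apart. Without that library and E16 replicate 12 the list's median log2 fold change was 2.32, and that of the oligodendrocyte lineage 4.89. Within the mt-Nd3 class 26 members rose (16.6% of all genes tested in that class did), and within the Gm28438 class 22 (7.22% of all).

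**Figure D1:**
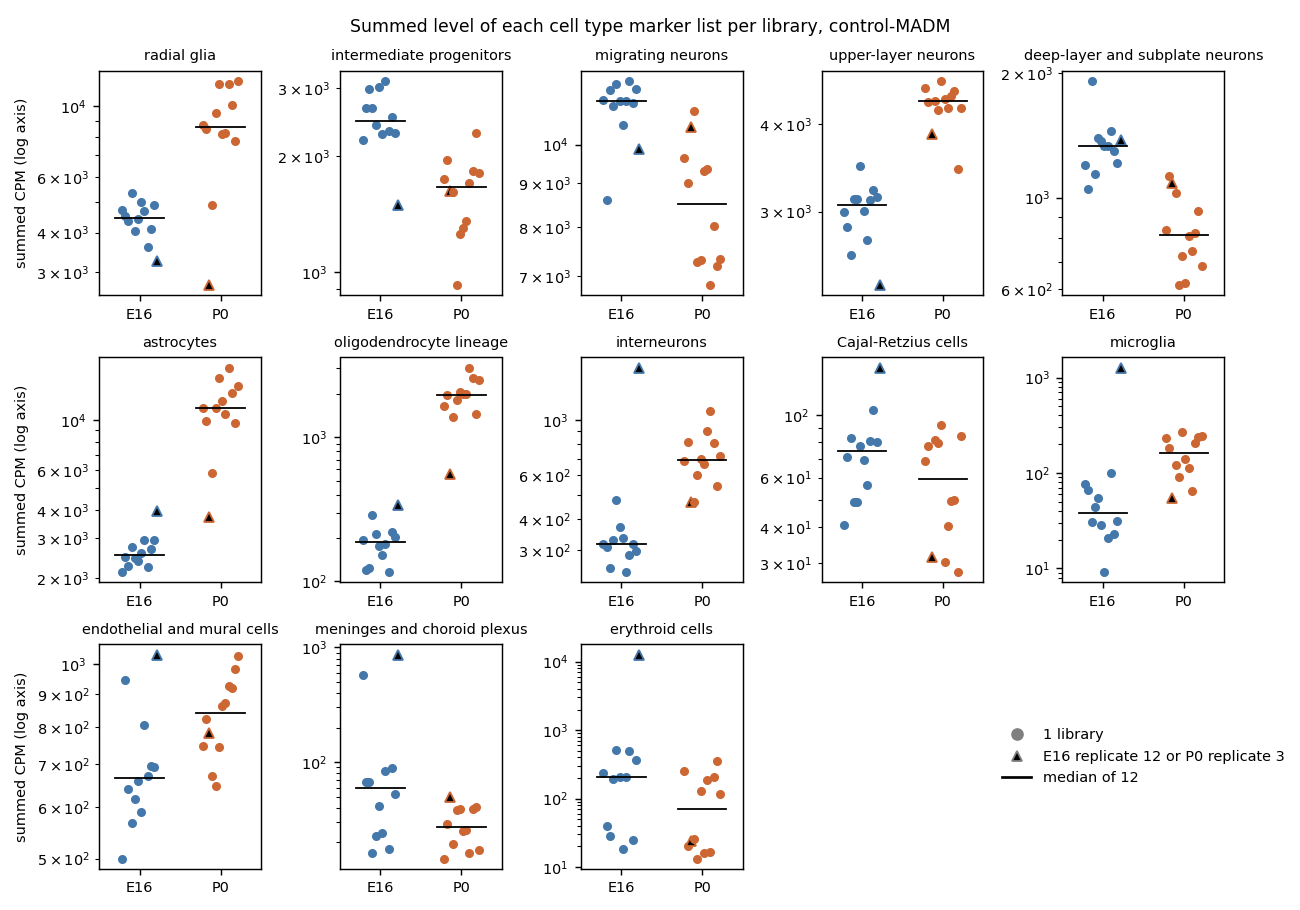
Each panel shows the summed CPM (log axis) of 1 cell type marker list in the 12 E16 and 12 P0 control-MADM libraries; a point is a library, the line is the median, and black triangles are E16 replicate 12 and P0 replicate 3. Oligodendrocyte-lineage sums do not overlap between the ages (336 CPM at most at E16, 552 CPM at least at P0), and E16 replicate 12 is far above the other E16 libraries in the erythroid, microglia and interneuron panels.

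Many genes of the oligodendrocyte lineage were near 0 at E16 and present at P0. Of 20 listed genes 15 had enough counts to be tested. These 15 rose (18.5% of all tested genes did), 13 of them with a log2 fold change above 1 (7.55% of all). Of the tested members 10 reached the count minimum in the E16 libraries (all rose, background 16.9%) and the others only with P0, so these counts, and the median of 4.39 over the tested members, describe those members and not the whole list, and they are no support for a rise of the list. Sox10, the factor that defines the oligodendrocyte fate, was at 0 to 4.65 CPM (median 0.533) at E16 and at 26.4 to 152 CPM (median 64.7) at P0 (log2 fold change 6.69, SE 0.45, adjusted p = 4.35e-11). The highest E16 library was replicate 12, and without it the fold change was 7.40 (adjusted p = 7.78e-13). Olig1 and Olig2, paired factors needed for oligodendrocyte precursors, lay at 2.98 to 84.2 CPM (median 30.5) at E16 and at 241 to 1652 CPM (median 958) at P0 for Olig1 and at 0.331 to 30.7 CPM (median 10.2) at E16 and at 53.6 to 290.2 CPM (median 164) at P0 for Olig2. Neither overlapped between the ages (log2 fold change 4.79, SE 0.43, adjusted p = 9.91e-09 for Olig1, and 3.70 (adjusted p = 2.16e-08) for Olig2). Pdgfra, the receptor that keeps these precursors dividing, was at 0.165 to 19.6 CPM (median 0.765) at E16 and at 14.5 to 162 CPM (median 66.6) at P0 (log2 fold change 4.72, SE 0.59, adjusted p = 1.52e-06). Its E16 maximum also came from replicate 12, while the other 11 E16 libraries stayed at or below 5.31 CPM. Gpr17, a receptor of precursors about to differentiate, rose (log2 fold change 5.00, adjusted p = 3.28e-05), and Nkx2-2, a factor of the same stage, (log2 fold change 5.07, adjusted p = 6.18e-08). Cnp, an enzyme of myelin membranes that is also present earlier, was at 12.6 to 39.7 CPM (median 16.5) at E16 and at 41.2 to 177 CPM (median 109.7) at P0 (log2 fold change 2.57, SE 0.21, adjusted p = 3e-10).

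Mog and Mag, genes of the finished myelin sheath, were too low to test. They fell under the count minimum, with 45 and 27 counts summed over the 12 E16 libraries and 36 and 57 over the 12 P0 libraries. Gal3st1, the enzyme that makes the myelin lipid sulfatide, was one of the sharpest changes. It had 3 counts in all E16 libraries together and 537 in the P0 libraries, a ratio of 195 per count on genes (95% exact interval 66.2 to 946, counting error only). Its P0 levels were 2.33 to 20.5 CPM (median 8.84). Tmem255b, a membrane protein, had the largest fitted rise among the named genes (log2 fold change 7.29, SE 0.59, adjusted p = 2.43e-10), with 3 counts at E16, all in 1 library, against 678 at P0 (ratio 246, interval 83.7 to 1190). Zfp488, a nuclear regulator of oligodendrocyte maturation, and Pllp (plasmolipin), a myelin membrane protein, had E16 medians of 0 and P0 medians of 6.37 and 5.94 CPM. Plekhb1, a membrane protein of glia and photoreceptors, lay at 0.644 to 5.85 CPM (median 3.54) at E16 and at 22.3 to 97.1 CPM (median 70.3) at P0 (log2 fold change 4.30, SE 0.26, adjusted p = 2.06e-12), and Pla2g3, a secreted phospholipase, went from a median of 0.237 to 14.8 CPM.

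The glial sums varied together among the P0 cortices. Across the 12 P0 libraries the log2 sums of astrocyte and oligodendrocyte-lineage markers had a Pearson r of 0.929 (permutation p = 0.0001, adjusted over 3 relations 0.00015) and a Spearman rho of 0.895 (permutation p = 0.00028, adjusted 0.00042). Without replicates 3 and 4, the pair farthest from the median, r was 0.798 over 10 libraries, and within the 6 libraries of each class it was 0.736 (mt-Nd3) and 0.926 (Gm28438). Against the radial glia markers r was 0.982 (permutation p = 4e-05, adjusted 0.00012; rho 0.895, permutation p = 0.00024), with 0.9 without that pair and 0.895 and 0.995 within the classes. Against the migrating-neuron markers it was -0.744 (permutation p = 0.00346; rho -0.615, permutation p = 0.0384), with -0.526 without that pair and -0.709 and -0.723 within the classes. All sums are shares of the same total, so a library rich in a group has less room for another. Of the listed genes 42 stand in more than 1 list, but the astrocyte list shares no gene with the oligodendrocyte-lineage, radial glia or migrating-neuron list.

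Of 43 tested members of the list of cortical matrix genes 25 rose (58.1%, against 18.5% of all tested genes, here the background), 6 fell (14%, background 18.2%) and 12 did not pass, with a median of 0.73. With the count minimum applied to the E16 libraries, 22 of 40 (55%) rose (background 16.9%). Bcan (brevican), a proteoglycan of the perineuronal matrix made by glia, was at 30.1 to 111 CPM (median 57.4) at E16 and at 189 to 1200.3 CPM (median 847) at P0 (log2 fold change 3.58, SE 0.24, adjusted p = 2.06e-11). No P0 library reached down to the E16 range. Ncan (neurocan), a proteoglycan of the developing cortex that neurons and glia both make, was already high, at 573 to 1207 CPM (median 962) at E16 and at 820.4 to 2552 CPM (median 2131) at P0 (log2 fold change 1.05, SE 0.14, adjusted p = 1.86e-06), and its ages overlapped. Tnc (tenascin C), a glycoprotein of germinal zones, lay at 87.6 to 249.8 CPM (median 159.8) at E16 and at 133 to 866 CPM (median 456) at P0 (log2 fold change 1.60, SE 0.22, adjusted p = 2.81e-06). Spon1, a secreted adhesion protein, was at 5.96 to 23.3 CPM (median 11.5) at E16 and at 32.4 to 173 CPM (median 104) at P0 (log2 fold change 3.06, SE 0.22, adjusted p = 7.45e-11). Gpc5, a membrane-anchored glypican, had an E16 median of 0 and lay at 2.24 to 14.6 CPM (median 6.39) at P0. Among the falls were Gpc3, another glypican, (log2 fold change -1.72, adjusted p = 0.0112) and Adamts18, a matrix protease, (log2 fold change -0.59, adjusted p = 0.00241). For Gpc3 the E16 maximum of 48 CPM came from replicate 12, and without that library the fold change was -1.07 (adjusted p = 0.0478).

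Radial glia genes did not move as one. Of 20 members 10 rose (50%, background 18.5%), 2 fell (10%, background 18.2%) and 8 did not pass. Among the risers were genes that astrocytes also express. Slc1a3, the glutamate transporter GLAST, was at 151 to 294 CPM (median 222) at E16 and at 253 to 1417 CPM (median 963) at P0 (log2 fold change 2.06, SE 0.19, adjusted p = 3.36e-09), and Mfge8, a secreted phagocytosis bridge, went from a median of 337 to 1402 CPM (log2 fold change 2.04, SE 0.19, adjusted p = 3.33e-09). In both, replicate 3 was the only P0 library within the E16 range. Sox2, a factor of neural stem cells and astroglia, was at 15 to 107 CPM (median 72.9) at E16 and at 74.5 to 215 CPM (median 155) at P0 (log2 fold change 1.26, SE 0.30, adjusted p = 0.00186), and Nes (nestin), the filament of progenitors, rose (log2 fold change 0.56, adjusted p = 0.0163). Other members did not pass or fell. Pax6, which directs cortical neurogenesis, was at 57.8 to 163 CPM (median 109) at E16 and at 48.4 to 120.4 CPM (median 86.5) at P0 (log2 fold change -0.29, SE 0.15, adjusted p = 0.134). Hes1, a Notch target that keeps progenitors undifferentiated, was at a median of 130.5 CPM at E16 and 119 CPM at P0 (adjusted p = 0.524). Vim (vimentin) fell, from levels of 514 to 1026 CPM (median 756) at E16 and at 239 to 745 CPM (median 511) at P0 (log2 fold change -0.62, SE 0.13, adjusted p = 0.000496), as did Emx2, a dorsal patterning factor, (log2 fold change -0.38, adjusted p = 0.0149). The summed radial glia markers were 3263 to 5328 CPM (median 4459.5) at E16 and 2739 to 12025 CPM (median 8615) at P0 (adjusted p = 0.00035, permutation test), with 10 P0 libraries above all E16 libraries and replicate 3 below all of them.

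Of the 28 tested Notch pathway genes 13 rose (46.4%, background 18.5%) and 3 fell (10.7%, background 18.2%). Among members above the count minimum at E16, 12 of 27 (44.4%) rose (background 16.9%). Among receptors, Notch1 was at 109 to 356 CPM (median 274) at E16 and at 173 to 616 CPM (median 439) at P0 (log2 fold change 0.80, SE 0.18, adjusted p = 0.000998), and Notch3 at 6.44 to 20.8 CPM (median 13.8) at E16 and at 13.5 to 82.1 CPM (median 43.1) at P0 (log2 fold change 1.68, SE 0.24, adjusted p = 3.18e-06). Among ligands, Dll1, which intermediate progenitors present to radial glia, was at medians of 31.7 and 35.8 CPM (adjusted p = 0.823), while Dll3, a ligand-like inhibitor inside the cell, rose (log2 fold change 1.08, adjusted p = 5.94e-05). The Fringe enzymes, which add sugars to Notch receptors and change their choice of ligand, moved apart. Lfng rose from a median of 28.8 to 81.9 CPM (log2 fold change 1.53, SE 0.25, adjusted p = 3.4e-05), and Mfng fell from 135 to 77.6 CPM (log2 fold change -0.68, SE 0.17, adjusted p = 0.00267). Rbpj, the DNA-binding partner of activated Notch, fell (log2 fold change -0.55, adjusted p = 0.00492), and the target Hes5 had medians of 393 and 632 CPM (adjusted p = 0.302).

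Of 31 receptors for growth factors and neurotrophins and their ligands 16 rose (51.6%, background 18.5%) and 2 fell (6.45%, background 18.2%). Egfr, through which late progenitors respond to EGF, was at 1.49 to 11.3 CPM (median 5.96) at E16 and at 12.4 to 137 CPM (median 49.8) at P0 and did not overlap between ages (log2 fold change 3.36, SE 0.35, adjusted p = 3.74e-08). Ntrk2 (TrkB), the receptor of BDNF on neurons and, in a short form, on astrocytes, lay at 47.5 to 222 CPM (median 121) at E16 and at 183 to 543 CPM (median 355) at P0 (log2 fold change 1.48, SE 0.18, adjusted p = 4.06e-07). Its relative Ntrk3 was at medians of 113 and 98.2 CPM (adjusted p = 0.752), and Igf1r at 120.4 and 101 CPM (adjusted p = 0.362). Igf2r, which clears IGF2, fell (log2 fold change -0.47, adjusted p = 0.00179). Acvr2a, an activin receptor, fell (log2 fold change -0.53, adjusted p = 0.0306), a call that was lost without E16 replicate 1 (log2 fold change -0.41) or without P0 replicate 10 (-0.49) or 12 (-0.49).

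Genes of intermediate progenitors were mostly lower at P0. Of 18 intermediate progenitor genes 14 fell (77.8%, background 18.2%) and 2 rose (11.1%, background 18.5%; 1 without E16 replicate 12), with a median of -0.77. By the P0 libraries' own count minimum, 12 of 16 (75%) fell (background 17.9%). Neurog1, a proneural factor, had the largest fall of the list. It was at 2.45 to 24.3 CPM (median 11) at E16 and at 0 to 0.896 CPM (median 0.197) at P0, and every P0 library lay below every E16 library (log2 fold change -5.50, SE 0.44, adjusted p = 2.55e-10). Its relative Neurog2, the main proneural factor of cortical progenitors, lay at 67.6 to 371 CPM (median 208) at E16 and at 5.9 to 106 CPM (median 40.7) at P0 (log2 fold change -2.54, SE 0.36, adjusted p = 5.83e-06). Eomes (Tbr2), which defines intermediate progenitors, was at 48 to 233 CPM (median 151) at E16 and at 19 to 76.3 CPM (median 50.5) at P0 (log2 fold change -1.71, SE 0.24, adjusted p = 3.31e-06). For both, E16 replicate 12 was the lowest E16 library, and it alone lay in the P0 range. In control-MADM at E13 (8 libraries with at least 50% uniquely aligned reads, scaled with all control libraries) the medians were 65.9 CPM for Neurog1, 595 for Neurog2 and 199 for Eomes. Elavl2 (HuB), a neuronal RNA-binding protein that comes on as cells leave the cycle, had the smallest adjusted p of all falls, with 98.4 to 173 CPM (median 137) at E16 and at 38.2 to 62.9 CPM (median 53.9) at P0 (log2 fold change -1.33, SE 0.10, adjusted p = 3.41e-11). Insm1, a factor of neurogenic divisions, fell (log2 fold change -0.47, adjusted p = 0.0371), a call lost in 11 of the 24 fits that each leave out 1 library and absent in the Gm28438 class alone (log2 fold change 0.05). The second riser besides Dll3 was Btg2, an antiproliferative gene that also responds to stimulation (log2 fold change 0.42, adjusted p = 0.0475), and it was lost in 15 of those 24 fits, with log2 fold changes between 0.33 and 0.42. The summed markers were 1495 to 3140.5 CPM (median 2471) at E16 and 925 to 2303 CPM (median 1664) at P0 (adjusted p = 0.00018, permutation test); without E16 replicate 12, 11 P0 libraries lay below all E16 libraries.

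Many cell cycle genes fell, most by a small amount. Of 43 G1/S genes 20 fell (46.5%, background 18.2%) with a median of -0.30, and of 49 G2/M genes 38 fell (77.6%) with a median of -0.58. The others did not pass the test, and only 2 of the G2/M genes fell by more than 1 on the log2 scale. Ube2c, which hands ubiquitin to the anaphase-promoting complex, was at 95.9 to 281 CPM (median 205) at E16 and at 54.9 to 152 CPM (median 113) at P0 (log2 fold change -0.88, SE 0.15, adjusted p = 5.12e-05). Ckap2, a spindle protein, lay at 17 to 36.9 CPM (median 29.7) at E16 and at 9.58 to 25.7 CPM (median 16.5) at P0 (log2 fold change -0.80, SE 0.14, adjusted p = 5.6e-05). Cdk1, the kinase of mitotic entry, was at 71.3 to 159 CPM (median 133) at E16 and at 42.2 to 105 CPM (median 81.5) at P0 (log2 fold change -0.60, SE 0.13, adjusted p = 0.000602), and Top2a, which untangles sister chromatids, at 50.5 to 158 CPM (median 105) at E16 and at 41.4 to 91.2 CPM (median 68.4) at P0 (log2 fold change -0.58, SE 0.16, adjusted p = 0.0054). Mki67, the usual proliferation marker, was low and scattered, with medians of 9.41 and 6.54 CPM (adjusted p = 0.257). In the G1/S list, Tyms (thymidylate synthase) did not overlap between the ages, at 61.5 to 138 CPM (median 69.4) at E16 and at 23.8 to 58.6 CPM (median 39.3) at P0 (log2 fold change -0.83, SE 0.15, adjusted p = 9.1e-05). Mcm2, a subunit of the replicative helicase, fell (log2 fold change -0.53, adjusted p = 0.00376). Pcna, the sliding clamp, was at medians of 91.4 and 83.2 CPM (adjusted p = 0.4), and E2f1, the factor that drives S phase genes, at 42.8 and 37.8 CPM (adjusted p = 0.627). Within the mt-Nd3 class 20 of the G2/M genes fell (12.4% of all genes tested there) and within the Gm28438 class 16 (6.4% of all).

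Letters of motifs known from cell cycle promoters were searched on both strands in RefSeq promoter windows (GRCm38.p6, 250 bases before to 50 after the start): TTTCCCGC or TTTGGCGC for E2F sites, TTTGAA for the cell cycle homology region (CHR) and CCAAT. An E2F match was found in 12 of 33 G1/S genes with a window (36.4%), against 3.61% of the tested genes and 1.8% of all genes with a window. Both CHR and CCAAT matches were found in 26 of 42 G2/M genes (61.9%), against 6.91% of the tested genes and 8.97% of all. Among the G1/S genes that fell the E2F share was 46.2% (6 of 13), and among those that did not pass 30% (6 of 20). Among the G2/M genes that fell the share of both matches was 65.6% (21 of 32), and among those that did not pass 55.6% (5 of 9). To show such promoters, the 180 bases before the start are printed for the 2 fallen genes of each list with the smallest adjusted p whose stretch holds the match, with the matched letters in capitals.
Hells, chr19:38930810-38930989 (plus strand): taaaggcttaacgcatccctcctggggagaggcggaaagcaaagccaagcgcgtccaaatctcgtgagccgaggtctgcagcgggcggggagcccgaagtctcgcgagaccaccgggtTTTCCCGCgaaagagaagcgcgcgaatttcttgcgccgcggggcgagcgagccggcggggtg
Cdc25a, chr9:109875399-109875578 (plus strand): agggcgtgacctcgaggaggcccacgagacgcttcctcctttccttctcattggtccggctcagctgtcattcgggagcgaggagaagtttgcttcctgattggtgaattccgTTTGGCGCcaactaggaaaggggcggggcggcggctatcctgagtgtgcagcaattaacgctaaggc
Ube2c, chr2:164769749-164769928 (plus strand): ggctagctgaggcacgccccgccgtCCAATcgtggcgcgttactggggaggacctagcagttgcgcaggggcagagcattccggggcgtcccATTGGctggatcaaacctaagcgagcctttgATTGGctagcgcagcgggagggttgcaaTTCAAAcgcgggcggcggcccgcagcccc
Ckap2, chr8:22185820-22185999 (minus strand): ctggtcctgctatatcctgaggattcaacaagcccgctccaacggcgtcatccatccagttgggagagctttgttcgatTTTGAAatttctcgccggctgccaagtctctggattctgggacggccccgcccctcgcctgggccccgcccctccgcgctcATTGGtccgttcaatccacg
In Hells, a chromatin remodeller of replicating cells, the E2F match TTTCCCGC begins 62 bases before the start. In Cdc25a, the phosphatase that releases the S phase kinase, TTTGGCGC begins 67 bases before it. Ube2c holds the CHR letters on the other strand (TTCAAA) 29 bases before the start, with CCAAT matches at 155, 88 and 57, and Ckap2 holds TTTGAA at 101 and a CCAAT match (ATTGG) at 20. Hells fell from a median of 15.5 to 8.72 CPM (log2 fold change -0.84, SE 0.22, adjusted p = 0.00368) and Cdc25a from 44.6 to 30 CPM (log2 fold change -0.48, SE 0.14, adjusted p = 0.00714).

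Genes of young and migrating neurons were often lower at P0. Of 24 members 12 fell (50%, background 18.2%), 1 rose (4.17%, background 18.5%) and 11 did not pass. With the count minimum applied to the P0 libraries, 11 of 23 (47.8%) fell (background 17.9%). Nrp1, a receptor subunit for class 3 semaphorins, lay at 189.8 to 388 CPM (median 292) at E16 and at 35.1 to 169 CPM (median 102) at P0 (log2 fold change -1.56, SE 0.18, adjusted p = 1.77e-07). Neurod1, a factor of newly born neurons, was at 60.5 to 168 CPM (median 117) at E16 and at 22.1 to 65.4 CPM (median 40.6) at P0 (log2 fold change -1.48, SE 0.17, adjusted p = 1.39e-07). Nhlh2, another transient neuronal factor, had medians of 13.5 and 0.906 CPM, with no overlap (log2 fold change -2.97, SE 0.49, adjusted p = 3.13e-05). Sox11, which drives early neuronal genes, fell (log2 fold change -1.52, adjusted p = 2.43e-06). Dcx (doublecortin), the microtubule protein of migrating neurons, fell less, from levels of 219 to 552 CPM (median 385) at E16 and at 183 to 400.1 CPM (median 278) at P0 (log2 fold change -0.40, SE 0.13, adjusted p = 0.0164). Unc5d, which marks cells in the multipolar stage, was at medians of 114 and 93.1 CPM (adjusted p = 0.217). The riser was Cdk5r2 (p39), the second activator of the kinase Cdk5, at 0.805 to 20.3 CPM (median 15.1) at E16 and at 19.6 to 50.7 CPM (median 38) at P0 (log2 fold change 1.44, SE 0.27, adjusted p = 0.000123). The summed markers were 8611 to 11883 CPM (median 11243) at E16 and 6838 to 10937 CPM (median 8514) at P0 (adjusted p = 0.000471, permutation test).

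Deep-layer and subplate genes were often lower at P0, and some upper-layer genes were higher. Of 21 deep-layer members 10 fell (47.6%, background 18.2%) and 1 rose (3 without E16 replicate 12, background then 19.7%). Of 20 upper-layer members 7 rose (35%, background 18.5%) and 2 fell. Of the upper-layer members that reached the count minimum in the E16 libraries, 6 of 19 (31.6%) rose (background 16.9%). Bcl11b (Ctip2), which specifies neurons that project below the cortex, was at 98.6 to 324 CPM (median 149) at E16 and at 21.8 to 61.7 CPM (median 40.8) at P0 (log2 fold change -2.01, SE 0.19, adjusted p = 4.88e-09). Fezf2, which acts upstream of it, lay at 85.5 to 281 CPM (median 159) at E16 and at 18.1 to 76 CPM (median 46.7) at P0 (log2 fold change -1.92, SE 0.19, adjusted p = 1.11e-08), and in neither gene did the ages overlap. At E13 the medians were 254 and 404 CPM. Crym, a thyroid hormone-binding protein of deep layers, fell (log2 fold change -2.41, adjusted p = 2.66e-08). Tbr1, the factor of layer VI, was at 72.8 to 202 CPM (median 152) at E16 and at 69.7 to 238 CPM (median 164) at P0 (log2 fold change 0.09, SE 0.18, adjusted p = 0.73). The riser was Etv1, a factor of layer V, from a median of 8.26 to 27.6 CPM (log2 fold change 1.45, SE 0.20, adjusted p = 1.52e-06), joined without E16 replicate 12 by Grik3 (log2 fold change 0.70, adjusted p = 0.0357, against 0.52 and 0.157 with it) and Thsd7b (0.88, adjusted p = 0.0406, against 0.67 and 0.138). Among upper-layer genes, Dkk3, a secreted protein, was at 21.4 to 72.9 CPM (median 45.8) at E16 and at 94.8 to 241 CPM (median 190.4) at P0 (log2 fold change 2.08, SE 0.16, adjusted p = 1.15e-10), and Ptn (pleiotrophin), a growth factor that glia also make, at 344 to 683 CPM (median 471) at E16 and at 974 to 2028 CPM (median 1556) at P0 (log2 fold change 1.62, SE 0.14, adjusted p = 4.72e-10). Neither overlapped. Rasgrf2, an exchange factor of layer II/III neurons, rose (log2 fold change 2.89, adjusted p = 1.47e-05). Cux2, a factor of the upper layers, was at medians of 163 and 212 CPM (adjusted p = 0.581). Cux1 rose (log2 fold change 0.17, adjusted p = 0.0235), a call lost without E16 replicate 3, 10 or 12 or P0 replicate 1 or 3 (log2 fold change 0.15, 0.16, 0.15, 0.14 and 0.15, respectively). Epha3 and Kitl (stem cell factor) fell, (log2 fold change -0.89, adjusted p = 6.01e-06) and -0.91 (adjusted p = 0.000715). The summed markers of the deep layers were 1049 to 1918 CPM (median 1337) at E16 and 615 to 1131 CPM (median 814) at P0 and of the upper layers 2356 to 3482 CPM (median 3063) at E16 and 3452 to 4618 CPM (median 4316) at P0 (adjusted p = 0.00018 and 0.0001, permutation test).

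**Figure D2:**
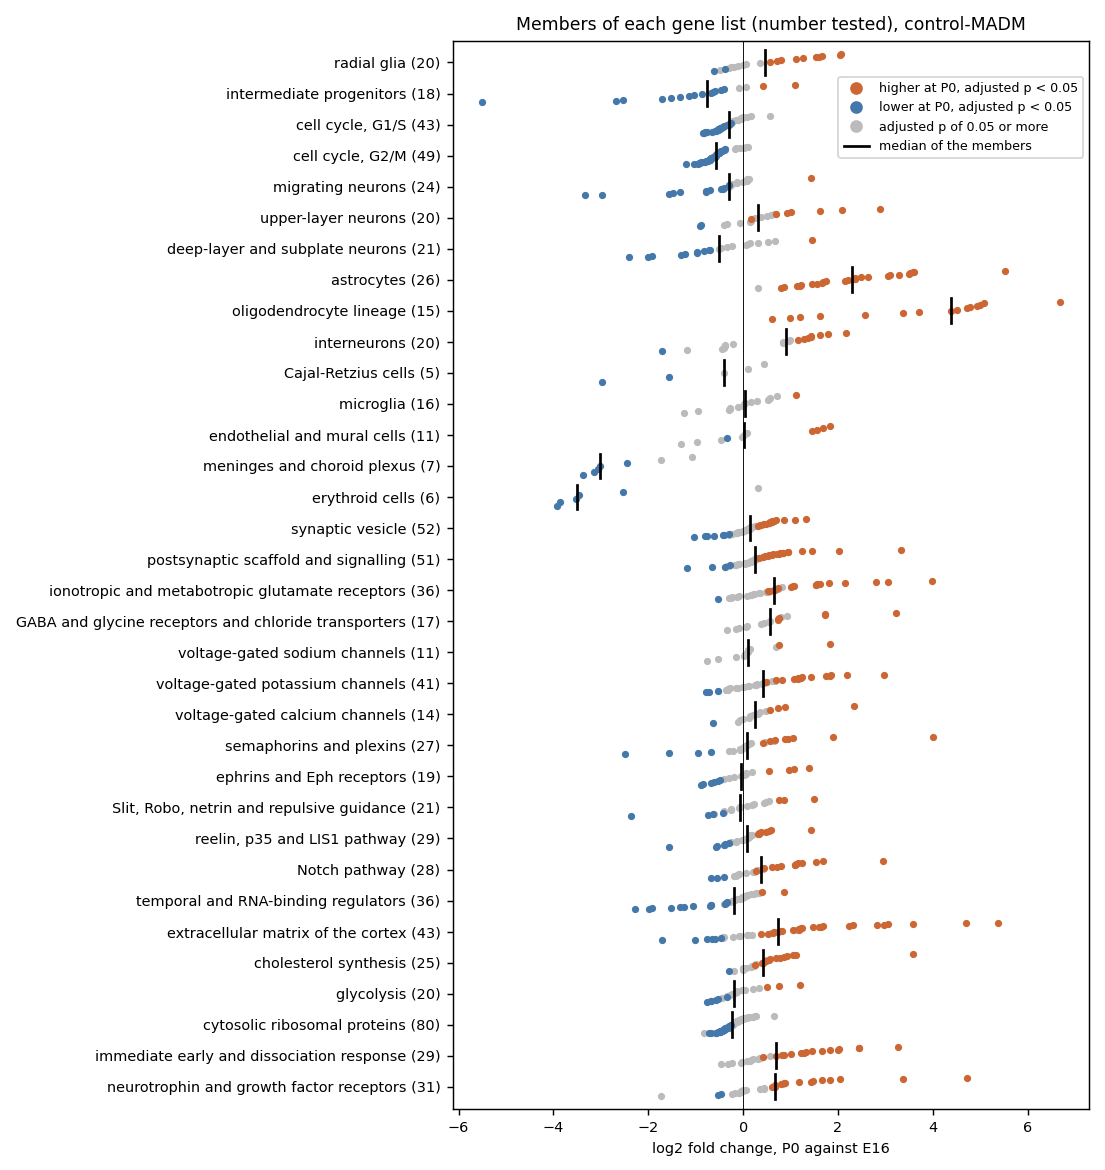
Each point is a tested member of 1 of 34 gene lists, placed by its log2 fold change from E16 to P0 in control-MADM; colours mark members higher or lower at P0 with an adjusted p under 0.05, and the black bar is the list's median. The astrocyte median is 2.29. The oligodendrocyte-lineage bar (4.39) covers only the 15 of 20 members that passed the count minimum, and the low meningeal and erythroid medians rest largely on E16 replicate 12.

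Semaphorins and plexins had 8 members higher and 4 lower of 27 (29.6% and 14.8%), ephrins and Eph receptors 4 and 6 of 19 (21.1% and 31.6%), and Slit, Robo, netrin and repulsive guidance genes 3 and 4 of 21 (14.3% and 19%). Over all tested genes the shares were 18.5% and 18.2%, so the Slit and Robo list lay near the background in both directions. Of the semaphorins and plexins that reached the count minimum in the E16 libraries, 7 of 26 (26.9%) rose (background 16.9%). Among receptors, Nrp2, the second neuropilin, was at 37.6 to 123 CPM (median 52.2) at E16 and at 2.85 to 19.8 CPM (median 9.56) at P0 (log2 fold change -2.49, SE 0.22, adjusted p = 1.81e-09), so both neuropilins fell without overlap between the ages. Plxna4, a plexin that pairs with them, was at medians of 231 and 229.7 CPM (adjusted p = 0.697), and Plxnb3, a plexin of the oligodendrocyte lineage, rose from a median of 0 to 4.05 CPM (log2 fold change 4.01, SE 0.55, adjusted p = 1.86e-06). Among ligands, Sema3a fell from a median of 14 to 7.9 CPM (log2 fold change -0.95, SE 0.21, adjusted p = 0.000589), Sema4a rose (log2 fold change 0.94, adjusted p = 2.88e-05), and Slit3 fell from 13.2 to 2.78 CPM (log2 fold change -2.37, SE 0.42, adjusted p = 6.27e-05). Ephb3 was at 9.79 to 26 CPM (median 19.1) at E16 and at 31.6 to 58.2 CPM (median 50.9) at P0, without overlap (log2 fold change 1.38, SE 0.15, adjusted p = 2.53e-08), and Epha5 fell from a median of 177 to 90.9 CPM (log2 fold change -0.84, SE 0.15, adjusted p = 6.79e-05). The repulsive guidance molecules Rgma and Rgmb, co-receptors for bone morphogenetic proteins, changed in opposite directions, (log2 fold change 0.86, adjusted p = 1.15e-05) and -0.43 (adjusted p = 0.000303). Unc5c, a netrin receptor, rose (log2 fold change 1.48, adjusted p = 0.000144). Robo1, a Slit receptor, was at medians of 63.3 and 56.4 CPM (adjusted p = 0.0931), and Epha4 at 296 and 214 CPM (adjusted p = 0.233).

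Cdk5r1 and Dab1, the genes deleted in this series, did not pass the test in control cells. Cdk5r1, which encodes p35, the main activator of Cdk5 in migrating neurons, was at 109 to 243 CPM (median 204) at E16 and at 137 to 253 CPM (median 179.5) at P0 (log2 fold change -0.14, SE 0.11, adjusted p = 0.351), after an E13 median of 62.9 CPM. Dab1, the adaptor that reelin receptors phosphorylate, lay at 184 to 419 CPM (median 333) at E16 and at 249 to 473 CPM (median 334) at P0 (log2 fold change 0.13, SE 0.13, adjusted p = 0.44). Around them 8 of 29 pathway members rose (27.6%, against 18.5% of all genes) and 6 fell (20.7%, near the 18.2% of all genes). Vldlr, a reelin receptor, rose (log2 fold change 0.54, adjusted p = 0.0106), and Ctnnd2 (delta-catenin) (log2 fold change 0.33, adjusted p = 0.00607). Pafah1b2 and Pafah1b3, the enzyme subunits that bind LIS1, were lower, Pafah1b2 at 288 to 396 CPM (median 325) at E16 and at 194 to 244 CPM (median 233) at P0 without overlap (log2 fold change -0.56, SE 0.07, adjusted p = 1.83e-07) and Pafah1b3 (log2 fold change -0.57, adjusted p = 3.75e-05). Reln itself, which Cajal-Retzius cells secrete, fell (log2 fold change -1.56, adjusted p = 0.0279). Its highest E16 level, 50 CPM, was in replicate 12, and without that library the value was -1.28 (adjusted p = 0.0541).

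Of 52 synaptic vesicle genes 17 rose and 7 fell, of 51 postsynaptic genes 19 and 4, and of 36 glutamate receptor genes 17 and 1. The shares that rose were 32.7%, 37.3% and 47.2%, against 18.5% of all tested genes, and the shares that fell 13.5%, 7.84% and 2.78%, against 18.2%. Of the glutamate receptor genes that reached the count minimum in the E16 libraries, 15 of 34 (44.1%) rose (background 16.9%), and the risers of both other lists all reached it. On the presynaptic side, Rims3, a protein of the release site, rose, from levels of 8.57 to 21.6 CPM (median 13.5) at E16 and at 22.4 to 47.1 CPM (median 32.6) at P0 (log2 fold change 1.33, SE 0.15, adjusted p = 4.19e-08). Snap25, a protein of the membrane fusion machinery, fell, from levels of 97.5 to 216 CPM (median 124) at E16 and at 39.3 to 117 CPM (median 70.6) at P0 (log2 fold change -0.81, SE 0.15, adjusted p = 0.000135), as did Rab3c, a vesicle GTPase, (log2 fold change -0.76, adjusted p = 0.000378), and Slc17a7 (VGLUT1), which loads glutamate into vesicles, (log2 fold change -1.04, adjusted p = 0.00422). Syt1, the calcium sensor of release, was at medians of 62.1 and 68.7 CPM (adjusted p = 0.682).

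On the receiving side, Grin1, the subunit that every NMDA receptor needs, was at 14.7 to 34.5 CPM (median 23.4) at E16 and at 56.7 to 90.9 CPM (median 71.1) at P0 without overlap (log2 fold change 1.56, SE 0.12, adjusted p = 1.72e-10). Of the subunits that join it, Grin2a, typical of mature synapses, rose from a median of 2.62 to 7.57 CPM (log2 fold change 1.53, SE 0.43, adjusted p = 0.00568), and Grin2b, typical of early ones, was at medians of 105 and 114 CPM (adjusted p = 0.495). Gria2, the AMPA receptor subunit that limits calcium entry, was at 109 and 91.1 CPM (adjusted p = 0.177), and Cnih3, an AMPA receptor partner, fell (log2 fold change -0.54, adjusted p = 0.00388). Grm3, a metabotropic receptor of astrocytes and neurons, lay at 1.13 to 7.71 CPM (median 3.95) at E16 and at 23.1 to 129 CPM (median 60.6) at P0 (log2 fold change 3.99, SE 0.31, adjusted p = 2.39e-10). Nrgn (neurogranin), which holds calmodulin in dendrites, was at 1.7 to 11.1 CPM (median 6.04) at E16 and at 21.9 to 129.98 CPM (median 56.8) at P0 (log2 fold change 3.33, SE 0.30, adjusted p = 3.32e-09). Arc, an activity-induced regulator of AMPA receptors, rose (log2 fold change 2.02, adjusted p = 5.31e-06), and Sorbs2, a dendritic adaptor, fell (log2 fold change -1.18, adjusted p = 6.03e-07). The scaffold Dlg4 (PSD-95) was at medians of 72.2 and 67.9 CPM (adjusted p = 0.853). Camk2a, a kinase of mature synapses, was at 20.1 and 30.2 CPM (adjusted p = 0.185), and it passed the test without E16 replicate 12 (log2 fold change 0.60, adjusted p = 0.0298).

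Of 17 genes for GABA and glycine receptors and chloride transporters 6 rose (35.3%, background 18.5%). Among members above the count minimum at E16, 5 of 16 (31.2%) rose (background 16.9%). Gabbr2, a subunit of the metabotropic GABA receptor, was at 2.9 to 17 CPM (median 11.2) at E16 and at 23.6 to 54.4 CPM (median 33.7) at P0 without overlap (log2 fold change 1.73, SE 0.22, adjusted p = 4.7e-07), and Gabrg1 rose (log2 fold change 3.23, adjusted p = 6.68e-07). Slc12a2 (NKCC1), which brings chloride into young neurons, was at medians of 19.5 and 19.5 CPM (adjusted p = 0.748). Slc12a5 (KCC2), which later expels it, was at 5.11 and 12 CPM (adjusted p = 0.0722), and it passed the test without E16 replicate 12 (log2 fold change 1.26, adjusted p = 0.000708), the library with its highest E16 level (28.2 CPM). Among ion channels 15 of 41 potassium channel genes rose and 3 fell, 4 of 14 calcium channel genes rose and 1 fell, and 2 of 11 sodium channel genes rose. The shares that rose were 36.6%, 28.6% and 18.2%, against 18.5% of all tested genes. The share that fell was 18.2% over all tested genes. By the E16 libraries' own count minimum, 11 of 37 (29.7%), 3 of 13 (23.1%) and 1 of 10 (10%) rose, against a background of 16.9%, so the shares were lower by that count and that of the sodium channels was below the background. Kcnd2, a channel of the transient A-type current in dendrites, was at 2.74 to 14.7 CPM (median 10.8) at E16 and at 21 to 64.2 CPM (median 34.1) at P0 (log2 fold change 1.86, SE 0.20, adjusted p = 3.17e-08), and Kcnip3, a calcium-binding subunit of such channels, at 41.9 to 78.2 CPM (median 58.2) at E16 and at 87.8 to 175 CPM (median 132) at P0 (log2 fold change 1.15, SE 0.11, adjusted p = 2.63e-09). Cacna1i, the pore of a T-type calcium channel, rose from a median of 1.34 to 7.98 CPM (log2 fold change 2.34, SE 0.44, adjusted p = 0.000134). Cacna1a, the pore of P/Q-type channels, rose (log2 fold change 0.73, adjusted p = 0.0016), and the auxiliary subunit Cacna2d1 fell (log2 fold change -0.64, adjusted p = 0.00104). The sodium channel pores Scn1a, Scn2a and Scn3a did not pass (adjusted p = 0.107, 0.714 and 0.97). The risers of that list were Nalcn, a leak channel, (log2 fold change 1.82, adjusted p = 0.00502) and Fgf12, a channel-binding protein, (log2 fold change 0.76, adjusted p = 0.0265), the latter lost without E16 replicate 3 (log2 fold change 0.68, adjusted p = 0.0506).

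Some regulators of developmental time and of RNA were lower. Of 36 members 13 fell (36.1%, background 18.2%) and 2 rose (5.56%, background 18.5%). In 7 all P0 libraries lay below all E16 libraries, as in 1.01% of all tested genes. Igf2bp1, which binds and stabilises fetal transcripts, was at 48.5 to 101 CPM (median 65.6) at E16 and at 9.34 to 25.9 CPM (median 18.1) at P0 (log2 fold change -1.92, SE 0.15, adjusted p = 1.19e-10), after an E13 median of 253 CPM. Lin28b and Hmga2, other fetal regulators, were under the count minimum, with 21 and 59 counts summed over the E16 libraries and 10 and 20 over the P0 libraries. Nr2f2 (COUP-TFII), a nuclear receptor of regional and cell type identity, fell (log2 fold change -2.29, adjusted p = 1.5e-08). Nfix, a factor of late progenitors and glia, was at medians of 1709 and 1594 CPM (adjusted p = 0.875). The risers were the splicing factors Rbfox1 and Nova1, (log2 fold change 0.41, adjusted p = 0.00106) and 0.85 (adjusted p = 0.000558). Other genes among the 10 smallest adjusted p of falls were Hnrnph3, a splicing protein, at 129 to 226 CPM (median 166) at E16 and at 80.2 to 108 CPM (median 90.4) at P0 (log2 fold change -0.88, SE 0.08, adjusted p = 4.88e-09), Rasgef1b, a Ras exchange factor, (log2 fold change -1.90, adjusted p = 2.74e-10), Serpini1 (neuroserpin), a protease inhibitor of neurons, (log2 fold change -1.55, adjusted p = 5.86e-09), Mtfr1, a mitochondrial fission regulator, (log2 fold change -1.24, adjusted p = 4.88e-09), and Hspbap1, a binding partner of a heat shock protein, (log2 fold change -1.32, adjusted p = 5.28e-09). Among the smallest adjusted p of rises were also Ncald (neurocalcin), a neuronal calcium sensor, at 15.7 to 43.4 CPM (median 29.1) at E16 and at 89.9 to 157 CPM (median 125) at P0 (log2 fold change 2.18, SE 0.15, adjusted p = 8.64e-12), and Me1, the cytosolic malic enzyme that supplies NADPH for lipid synthesis, at 5.66 to 10.4 CPM (median 9) at E16 and at 26.7 to 37.8 CPM (median 30.5) at P0 (log2 fold change 1.89, SE 0.12, adjusted p = 3.62e-12).

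**Figure D3:**
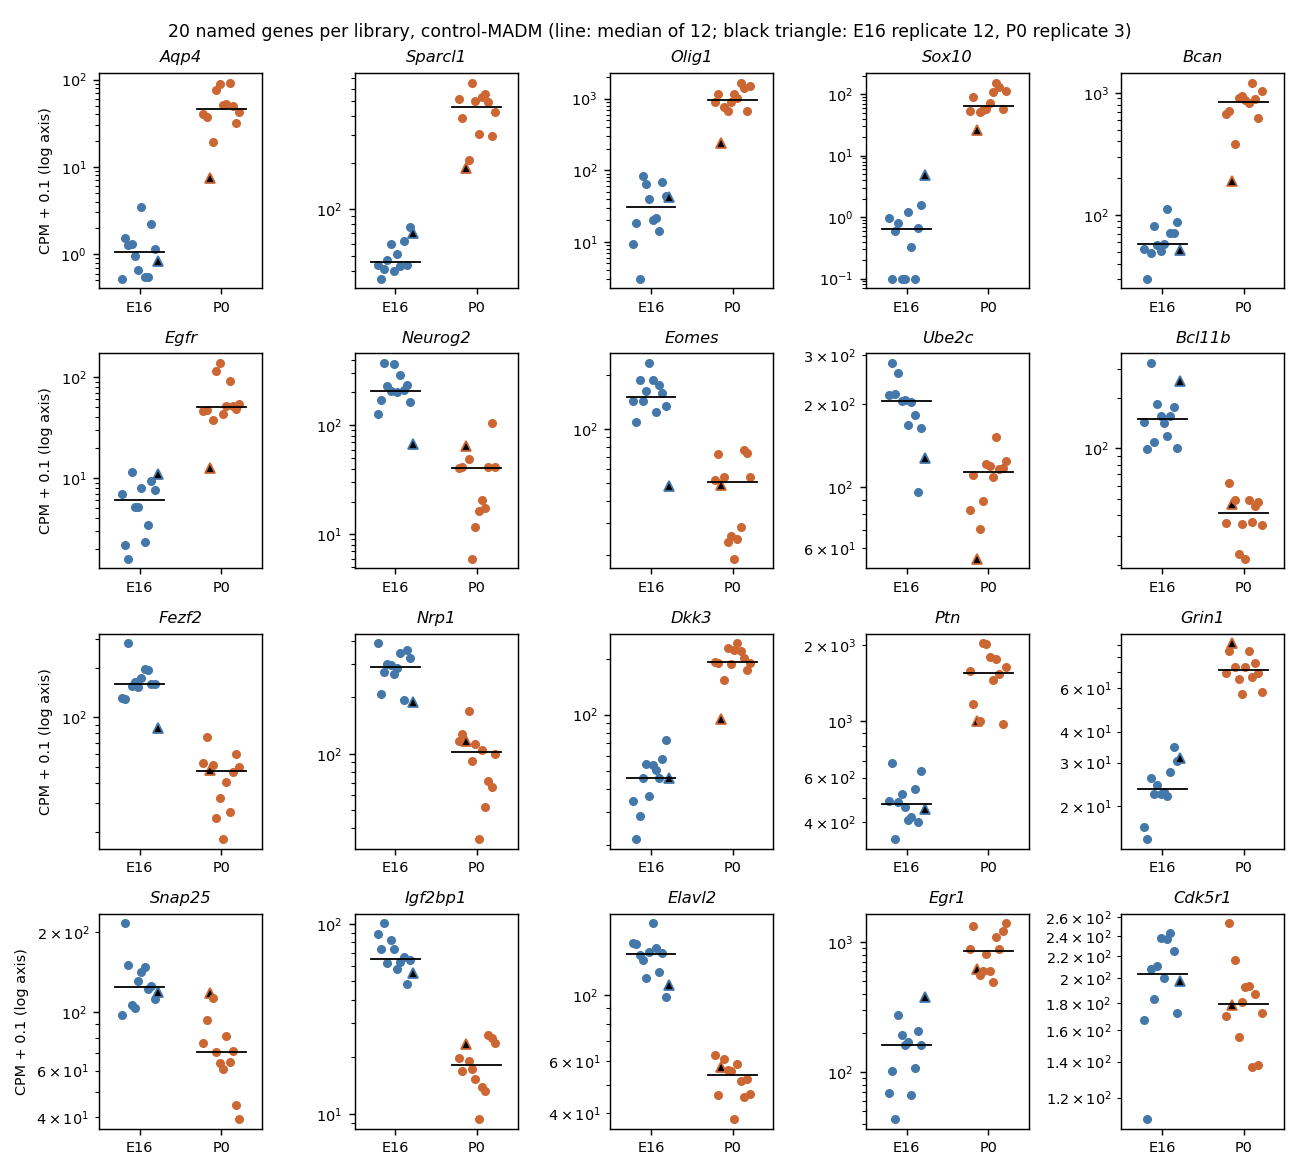
The level of 20 named genes in each control-MADM library (CPM + 0.1, log axis) at E16 and P0; a point is a library, the line is the median of 12, and black triangles are E16 replicate 12 and P0 replicate 3. The ages separate fully for Aqp4, Olig1, Sox10, Bcan, Bcl11b, Fezf2, Nrp1, Grin1, Igf2bp1 and Elavl2 among others, and overlap for Cdk5r1.

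Of 25 genes of cholesterol synthesis and turnover 14 rose (56%, against 18.5% of all tested genes) and 1 fell (background 18.2%, median 0.41). With the count minimum applied to the E16 libraries, 13 of 24 (54.2%) rose (background 16.9%). Hmgcs1, an enzyme of the early steps of the pathway, rose (log2 fold change 0.39, adjusted p = 0.00528). Cyp46a1, through which neurons export cholesterol, rose from a median of 21.6 to 46.5 CPM (log2 fold change 1.06, SE 0.15, adjusted p = 2.26e-06), and Fdft1 (squalene synthase) fell (log2 fold change -0.30, adjusted p = 0.0191). Of 20 glycolysis genes 6 fell (30%, against 18.2%) and 3 rose (15%). Tpi1 was at 286 to 376 CPM (median 341) at E16 and at 165 to 262 CPM (median 204) at P0 without overlap (log2 fold change -0.69, SE 0.08, adjusted p = 9.73e-08), Pkm fell (log2 fold change -0.69, adjusted p = 1.33e-06), and Ldha, which turns pyruvate to lactate, (log2 fold change -0.58, adjusted p = 3.72e-05). Aldoc, the aldolase of astrocytes, rose from a median of 384 to 903 CPM (log2 fold change 1.19, SE 0.17, adjusted p = 4.41e-06), and Hk1 (hexokinase 1) (log2 fold change 0.51, adjusted p = 0.000683). Of 80 ribosomal protein genes 32 fell (40%, background 18.2%) and the others did not pass, with a median of -0.24. Rpl4 was at 1085 to 1418 CPM (median 1228) at E16 and at 833 to 1061 CPM (median 947) at P0 (log2 fold change -0.38, SE 0.07, adjusted p = 9.31e-05), and Rplp0 fell (log2 fold change -0.26, adjusted p = 0.0171). Ribosomal proteins have many near-identical copies in the genome, and reads with more than 1 place were not kept, so levels of members such as Rpl3 and Rps6 (medians of 23.5 and 8.01 CPM at E16) are uncertain.

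Immediate early genes, which stimulation switches on within minutes and which tissue dissociation also induces, were often higher at P0. Of 29 members 16 rose (55.2%, background 18.5%) and 13 did not pass (median 0.70). Egr1 was at 43.3 to 376 CPM (median 161) at E16 and at 496 to 1392 CPM (median 849.9) at P0 without overlap (log2 fold change 2.45, SE 0.29, adjusted p = 3.96e-07). Egr2 lay at 0.966 to 19.6 CPM (median 3.34) at E16 and at 17.5 to 77.2 CPM (median 38) at P0 (log2 fold change 3.27, SE 0.38, adjusted p = 2.6e-07), and only E16 replicate 12 and P0 replicate 4 overlapped. Fos was at 82.3 to 1173 CPM (median 593) at E16 and at 820.1 to 1740.2 CPM (median 1263) at P0 (log2 fold change 1.29, SE 0.27, adjusted p = 0.000567). Npas4, which responds to calcium entry in neurons, was at medians of 21 and 21.4 CPM (adjusted p = 0.741). The part of cell preparation in these values was not tested, since age and the tissue that was dissociated cannot be told apart.

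Markers of other cell types were also measured, and several of their values depended on E16 replicate 12. Of 20 interneuron markers 8 rose (40%, background 18.5%) and 1 fell (5%, background 18.2%), and 12 rose when E16 replicate 12 was left out (background then 19.7%). Dlx2 and Sp8, factors of GABAergic neurons that include those of the olfactory bulb, were at 4.42 to 287 CPM (median 17.8) at E16 and at 65.3 to 237 CPM (median 139.5) at P0 (Dlx2) and at 2.85 to 20.3 CPM (median 5.96) at E16 and at 16.8 to 82.5 CPM (median 35.1) at P0 (Sp8). The highest E16 level of Dlx2 was that of replicate 12, and the other 11 libraries stayed at or below 30.4 CPM. The fold changes were 1.79 (adjusted p = 0.0137) for Dlx2 with and 3.07 (adjusted p = 8.16e-10) without that library, and 2.17 (adjusted p = 1.56e-06) and 2.35 (adjusted p = 1.01e-07) for Sp8. Gad2, a GABA-synthesising enzyme, rose (log2 fold change 1.28, adjusted p = 0.023), or 2.14 (adjusted p = 3.63e-08) without it. Lhx6, a factor of interneurons from the medial ganglionic eminence, fell (log2 fold change -1.72, adjusted p = 0.0181), a call lost without replicate 12 (log2 fold change -0.67, adjusted p = 0.152). Nkx2-1 and Isl1, other ventral factors, reached 31.6 and 39.4 CPM in that library and at most 6.76 and 9.34 CPM in the other 11. Their falls (-5.76 (adjusted p = 6.7e-05) and -4.26 (adjusted p = 3.81e-05)) could not be tested without it, because the genes then missed the count minimum. The summed interneuron markers were 245 to 1622 CPM (median 318) at E16 and 467 to 1086 CPM (median 691) at P0 (adjusted p = 0.0447, 0.0521 on TMM-scaled library sizes, and 0.0001 without replicate 12, permutation tests).

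Among microglia markers 1 of 16 rose (6.25%, background 18.5%), and 12 rose when E16 replicate 12 was left out (background then 19.7%). Csf1r, the receptor that keeps microglia alive, was at 0 to 139.9 CPM (median 2.24) at E16 and at 2.07 to 21.3 CPM (median 11.9) at P0, with a log2 fold change of -0.29 (adjusted p = 0.807), or 1.92 (adjusted p = 0.00197) without replicate 12. For Cx3cr1, the fractalkine receptor, the values were 0.57 (adjusted p = 0.644) and 2.89 (adjusted p = 0.000935), and for C1qa, a complement subunit, -0.31 (adjusted p = 0.807) and 2.06 (adjusted p = 0.00318). The summed microglia markers were 9.22 to 1267 CPM (median 37.7) at E16 and 54.4 to 267 CPM (median 161) at P0 (adjusted p = 0.99, permutation test). Without that library they were at most 99.6 CPM (median 31) at E16, and the sum rose (adjusted p = 0.000171, permutation test). Of 11 endothelial and mural markers 4 rose (36.4%, background 18.5%) and 1 fell (9.09%, background 18.2%). Among members above the count minimum at E16, 3 of 10 (30%) rose (background 16.9%). Cldn5, the tight junction protein of brain endothelium, was at medians of 3.24 and 5.61 CPM (adjusted p = 0.353), Pecam1 had 71 and 105 counts summed over the E16 and P0 libraries, and the risers were led by Slco1c1, a thyroid hormone transporter of endothelium and astroglia (log2 fold change 1.56, adjusted p = 4.91e-05). Slc2a1, the glucose transporter, fell (log2 fold change -0.35, adjusted p = 0.0318), a call lost without P0 replicate 2 (log2 fold change -0.33) or 4 (-0.30).

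The haemoglobin falls, and some of the meningeal ones, rested on single E16 libraries. Hbb-bs was at 1.13 to 6810.4 CPM (median 91.4) at E16 and at 0 to 163 CPM (median 31.8) at P0 and Hba-a1 at 3.8 to 3349 CPM (median 53.7) at E16 and at 0.236 to 91.9 CPM (median 17.5) at P0, with log2 fold changes of -3.85 (adjusted p = 0.0194) and -3.45 (adjusted p = 0.0202). Without E16 replicate 12 these were -1.14 (adjusted p = 0.317) and -0.95 (adjusted p = 0.353). Hbb-bt, Hba-a2 and Alas2, the haem synthesis enzyme of red cells, lost their calls in the same way (log2 fold change -1.19 (adjusted p = 0.248), -1.13 (adjusted p = 0.255) and -0.11 (adjusted p = 0.888) without it), so that 5 of 6 erythroid markers fell (background 18.2%) with that library. Dcn (decorin) fell (log2 fold change -3.39, adjusted p = 0.00254), or -1.36 (adjusted p = 0.0111) without it, and Col1a1 (collagen I) (log2 fold change -3.03, adjusted p = 0.00596), or -0.85 (adjusted p = 0.0713). Cldn11, a tight junction protein of meninges and myelin, and Mgp, a calcification inhibitor, reached 266 and 126 CPM in replicate 12 and at most 5.79 and 1.13 CPM in the other 11 E16 libraries. Crabp2, a retinoic acid carrier of meninges, was at 41.4 CPM there and at most 5.07 CPM elsewhere at E16. Ttr (transthyretin), the main product of choroid plexus, fell (log2 fold change -3.15, adjusted p = 0.00731). Its call was lost without E16 replicate 1 (log2 fold change -1.74, adjusted p = 0.0533), and it was -3.23 (adjusted p = 0.00687) without replicate 12. Of 7 tested meningeal and choroid plexus markers 5 fell (71.4%, background 18.2%), and 2 of the 3 above the count minimum at P0 did. Without replicate 12, 2 of them fell (Dcn and Ttr, background then 20.1%). Col1a2, a collagen I chain, rose (log2 fold change 1.20, adjusted p = 0.0116, background then 19.7%). The sum of these markers was 16.2 to 866 CPM (median 59.9) at E16 and 14.4 to 50 CPM (median 27.2) at P0 (adjusted p = 0.0195), and without replicate 12 it also fell (adjusted p = 0.0299, permutation tests). Tpm3-rs7, a gene related in sequence to tropomyosin 3, fell (log2 fold change -3.73, adjusted p = 3.02e-05), or -3.58 (adjusted p = 3.34e-05) without replicate 12.

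Genes with the longest genomic span rose more often than those with the shortest. Among 12040 tested protein-coding genes, sorted by genomic span into 5 bins, 24.7% of the longest (from 80387 bases) rose and 13.5% fell, against 16.7% and 21.5% of the shortest (up to 8708 bases). In the bins between them 18.3%, 18.6% and 18.6% rose. The median log2 fold change went from -0.08 in the shortest to 0.07 in the longest bin. By exon length in place of span, 19% of the longest bin rose and 14.7% fell, against 16.4% and 25.4% of the shortest. The bins between them rose in 21%, 21% and 19.5%, each more often than the longest, so the rises did not climb steadily with exon length. This is a description with no test, and the bins also differ in level, with a median E16 mean of 40.6 CPM in the shortest and 25.1 CPM in the longest bin by span.

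The same interval was measured in other cortices of the series, with libraries that control-MADM does not share. In a fit of all 3 genotypes (58 libraries with at least 50% uniquely aligned reads), 4750 of the genes called in control-MADM were tested. Of these 94.8% changed in the same direction in Cdk5r1-MADM, against 76.8% of all genes, and 44.3% were also called there (background 20.8%, of all genes 11.6% higher and 9.24% lower). In KO-Cdk5r1-MADM 83.7% had the same direction, against 68.4% of all genes, and 38.7% were called (background 24.6%, of all genes 11.8% higher and 12.9% lower). Over the genes that rose in control-MADM the median log2 fold change was 0.81 in control-MADM, 0.37 in KO-Cdk5r1-MADM and 0.74 with the mosaic genotype. Over those that fell it was -0.52, -0.26 and -0.36. The genes were chosen for their change in control-MADM, so its own medians are raised by that choice.

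The difference itself was tested as an interaction of age and genotype. Against KO-Cdk5r1-MADM 714 of 13007 genes (5.49%) changed differently, 424 with a more negative change there (3.26%) and 290 with a more positive one (2.23%). Of the astrocyte list 14 of 26 members had a more negative change in KO-Cdk5r1-MADM, of the oligodendrocyte lineage 9 of 15 and of the matrix list 14 of 43. The interaction subtracts the same control-MADM change by which most of these genes had risen, and of all 2372 genes that rose there 346 (14.6%) had such a call. Of 12639 genes tested here that reached the count minimum in the control E16 libraries by themselves, 361 had such a call. Of the list members that reached it the counts were 13 of 24, 5 of 10 and 12 of 40. These counts describe the tested members and are no support for a weaker rise of a list. Cdk5r1 itself lay at 97.8, 207 and 244 CPM at E16 and 138, 182 and 251 CPM at P0 in control-MADM, and at 40.4, 53.9 and 65.5 and 62.7, 74.2 and 111 CPM in KO-Cdk5r1-MADM (lowest, median and highest library, CPM on the total on genes). In Cdk5r1-MADM it lay at 60.1, 68.9 and 74.1 CPM and 53.2, 66.2 and 122 CPM. These counts cover the whole gene and not the deleted stretch alone, so they are no measure of intact transcript. Sox10 rose by 6.66 in control-MADM, 5.24 in Cdk5r1-MADM and 0.67 (not called, adjusted p = 0.396) in KO-Cdk5r1-MADM, with an interaction of -6.0 (adjusted p = 0.000142). Slc6a9, the glycine transporter of astrocytes, Sox13, a factor of glial precursors, and Itga7, a laminin receptor, followed among the smallest adjusted p, with interactions of -2.19, -2.30 and -5.67. Gpr37l1 and Egfr, in contrast, rose by 4.91 and 3.33 in KO-Cdk5r1-MADM, and their interactions did not pass (adjusted p = 0.838 and 0.994). All KO-Cdk5r1-MADM libraries are of the Gm28438 class. With control libraries of that class only (6 at each age), 1 gene was called (AA465934, a non-coding transcript on chromosome 11, the chromosome that carries the MADM cassettes; 1881 genes, or 14.4%, at an unadjusted p under 0.05) in that fit. The median interaction in it was -0.71 over 27 astrocyte genes (-0.92 with both classes), -1.80 over 14 genes of the oligodendrocyte lineage (-2.45) and 0.03 over all genes tested, and -0.41 over all that rose in control-MADM. Without control-MADM E16 replicate 12 the count over both classes was 1271. Against Cdk5r1-MADM the same gene alone was called of 13007 (0.00769%, the change being higher there; 933 at an unadjusted p under 0.05, and 1 with DESeq2 as well). All Cdk5r1-MADM libraries in this fit are of the mt-Nd3 class. Within that class, and with a replicate block, the call was lost, with differences of 2.54 (adjusted p = 0.412) and 2.64 (adjusted p = 0.0814). Within control-MADM, no gene was called for a difference between the classes in its change with age (edgeR, 0 called, 1337 genes or 10.2% at an unadjusted p under 0.05), which does not show that the classes changed alike.

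**Figure D4:**
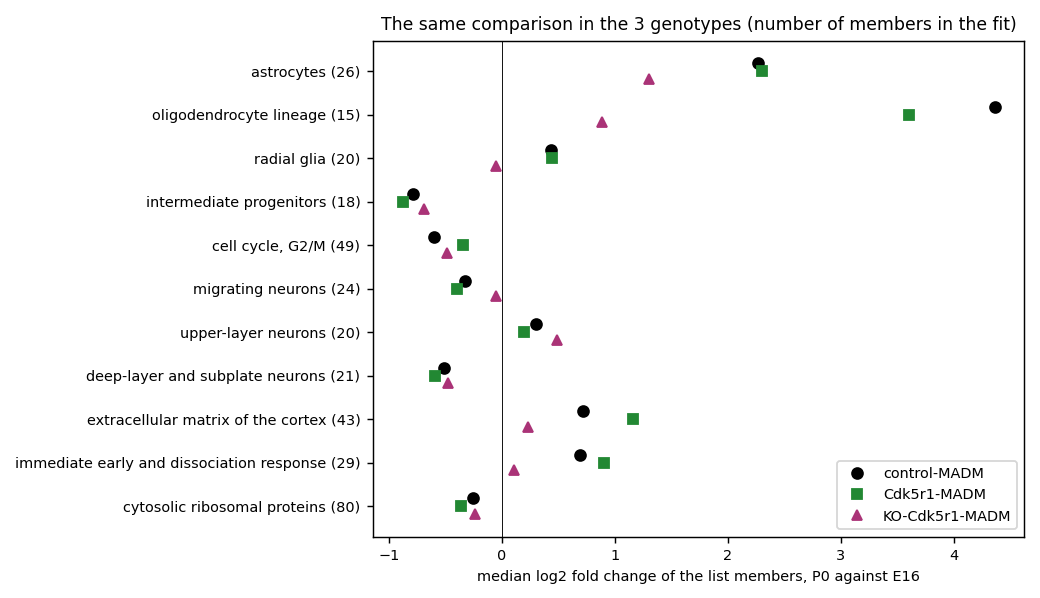
Median log2 fold change from E16 to P0 over the members of 11 gene lists (number of members in the fit) for the control, the mosaic (Cdk5r1-MADM) and the full knockout (KO-Cdk5r1-MADM) genotypes, from 1 fit of 58 libraries. The oligodendrocyte-lineage medians are 4.36, 3.60 and 0.89, and the G2/M medians -0.60, -0.35 and -0.48.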

How the data were processed

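Reads per gene had been counted by the authors with STAR against mm10 (GRCm38), keeping reads with a single place. The deposited values are raw counts on both strands together, not normalized, with 1 library per cortex, and their column for unstranded data was used, since a share of 0.489 to 0.499 of reads lay on the annotated strand. The STAR version and annotation release are not given in the sources used here. The submitters' processing notes also name R 3.6.1 and bedtools. Rows without a gene (unmapped, outside genes, on more than 1 gene) held 44.5% of reads in control libraries and stayed out. Of 53379 gene identifiers 53274 matched GENCODE vM21 without the version.

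Genes with a mean count above 10 were tested with edgeR 4.0.16 (TMM, robust quasi-likelihood F test, Benjamini-Hochberg) over the 24 control libraries, without a replicate block. The fit of 3 genotypes used 58 libraries with at least 50% uniquely aligned reads. limma 3.58.1 and DESeq2 1.42.0 ran under R 4.3.3, DESeq2 as an alternative. On simulated counts for the control comparison (12968 genes) edgeR recovered 74 of 100 genes changed 2-fold and 37 of 100 changed 1.5-fold. No other genes were changed there, a far smaller share than was called in the data. The adjusted p depends on that share, so these rates are not those of the real comparison. Library sums of markers are CPM on the total on genes, tested by permutation (100000 resamples, smallest possible p 2e-05). Intervals cover counting error only. P-values measure the spread between cortices.

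Named genes are the 10 with the smallest adjusted p and the 10 protein-coding genes with the largest fold change (higher group at least 5 CPM on average) in each direction, preset anchors of 34 lists, the 2 most significant genes of each list and direction, Cdk5r1, Dab1 and the 5 strongest interaction genes. Some were left out for room, and some are not reported here. Genes outside the rule (Emx1, Crym, Gfap, Gja1, Gpr17, Nes, Nkx2-1, Nkx2-2, Nr2f2, Mog, Mag, Rasgrf2, Sox11, Col1a2, Grik3, Thsd7b, and Hells and Cdc25a for their promoters) were added after values were seen. The lists and comparisons were chosen with earlier results of these data known, and 42 genes stand in more than 1 list. Promoter windows are from RefSeq (GRCm38.p6), matched by symbol.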

Additional observations from a re-analysis of the deposited data

Results flagged for a closer look

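For 59 of the genes named above the change from E16 to P0 differed between KO-Cdk5r1-MADM and control-MADM by the age by genotype interaction of the fit across all genes (edgeR, adjusted p under 0.05). Values here are that difference in log2 fold change, KO-Cdk5r1-MADM minus control-MADM. It was negative for 38 genes and positive for 21. Of all 714 genes called, 346 of the 349 that had risen in control-MADM had a negative value and 198 of the 199 that had fallen a positive one. The genes below were grouped by known role after the values were seen, and no test compared the groups with each other or with the other called genes. The KO libraries are all of the Gm28438 class, and with control libraries of that class alone AA465934 was the only call. In that fit the interaction of Sox10 was -5.40, and it was below zero for 25 of 27 astrocyte genes and 12 of 14 of the oligodendrocyte lineage. It was below zero for 1928 of 2335 genes that rose in control-MADM (82.6%) and for 6208 of 13035 of all genes tested.

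Among astrocyte and astroglial genes the differences were Aqp4 (-1.77), Aldh1l1 (-1.02), Sparcl1 (-0.929), Slc25a18 (-2.39), Itih3 (-2.78), Mfge8 (-0.885), Slc6a9 (-2.19), Sox13 (-2.3), Sox2 (-1.34), Notch1 (-0.879), Notch3 (-1.63) and Ntrk2 (-0.835). Genes of the oligodendrocyte lineage and others with a large rise in control-MADM gave Sox10 (-6), Olig1 (-2.55), Pdgfra (-3.59), Gpr17 (-4.36), Nkx2-2 (-4.26), Gal3st1 (-5.35), Cnp (-1.52), Zfp488 (-4.81), Pllp (-3.85), Plekhb1 (-2.48), Pla2g3 (-2.62) and Itga7 (-5.67). Matrix genes gave Bcan (-1.78), Ncan (-0.667), Spon1 (-1.62) and Gpc5 (-2.7).

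Factors of young neurons and RNA-binding proteins gave Elavl2 (0.733), Neurod1 (1.31), Sox11 (1.21), Igf2bp1 (0.771) and Hnrnph3 (0.486). Guidance and layer genes gave Unc5d (1.28), Epha3 (0.982), Sema3a (1.41), Robo1 (0.83), Kitl (1.09) and Cux1 (0.333), with Ephb3 at the other sign (-1.26). Among synaptic and channel genes Snap25 (0.836), Rab3c (0.746), Sorbs2 (0.931), Gria2 (0.675), Cacna2d1 (0.976), Rasgef1b (0.71) and Serpini1 (1.06) were above zero and Grin1 (-0.646), Arc (-1.39), Kcnip3 (-0.614), Cacna1i (-2.16) and Ncald (-0.914) below it. Cdk5r1, the deleted gene, had a difference of 0.629, and its relative Cdk5r2 one of -1.08.

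The remaining differences were Me1 (-0.94), Rpl4 (0.345), Sp8 (-1.76) and Ttr (-5.64). AA465934, a non-coding transcript of chromosome 11, changed by -2.96 in control-MADM and by 0.01 in KO-Cdk5r1-MADM, a difference of 2.97. Against Cdk5r1-MADM its difference was 2.89 (edgeR, adjusted p = 0.0073), where it was the only gene called. The Cdk5r1-MADM libraries in this fit are all of the mt-Nd3 class. The call was lost within that class (2.54, edgeR, adjusted p = 0.412) and with the replicate block (2.64, adjusted p = 0.0814). Sox10 and AA465934 had the smallest adjusted p against KO-Cdk5r1-MADM (0.000142 each). No explanation of these differences was tested.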

How the results depend on the processing

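The count of 4792 genes stayed within 1.5 times under the other normalizations, filters, covariates and library choices that were run for it, and ranged from 4514 (without P0 replicate 2) to 5187 (without E16 replicate 12) when each library was left out (higher 2200 to 2569, lower 2210 to 2618). It moved further in 3 settings: 428 (380 higher, 48 lower) when tested against a log2 fold change of 1, 1782 (945 and 837) in the Gm28438 class alone, and 2378 (1278 and 1100) in that class without E16 replicate 12. The mt-Nd3 class alone, with as many libraries as the Gm28438 class, gave 3772, and the cause of this difference was not tested. Without E16 replicates 2 and 12 the count was 5181. Of the called genes 50.4% were higher, and 58.5% with no mean-count minimum. Of the 164 called genes that the text names, 55 lost their call in the Gm28438 class, 42 in that class without E16 replicate 12, 24 in the mt-Nd3 class, 15 with the replicate block, 8 each with DESeq2 and with sex as a covariate, 10 without E16 replicate 12 and 93 when tested against a log2 fold change of 1. Only 161, 157 and 159 of the 164 had a value in the 3 class fits, in that order, and 159 without E16 replicate 12. Changes of sign are not in these counts, 2 with DESeq2 and 1 in each class alone.

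Replicate numbers are shared between ages but only name the libraries (12 pairs, correlations of deviations from -0.196 to 0.0372). With the replicate block 4168 genes were called, and the Cdk5r1-MADM interaction fell from 1 gene to 0 (edgeR, 1114 at an unadjusted p under 0.05). It was also 0 in the mt-Nd3 class alone (1122), against 1 with DESeq2.

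The KO-Cdk5r1-MADM interaction (714 genes) gave 171 with no alignment minimum, 468 with no mean-count minimum, 1 in the Gm28438 class alone and 1271 without control-MADM E16 replicate 12. The change within KO-Cdk5r1-MADM (3205 genes) gave 1680 with no alignment minimum. The cause was not tested.

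On TMM-scaled library sizes the rise of the summed interneuron markers (271 CPM, adjusted p = 0.0521, permutation test) and endothelial markers (125 CPM, adjusted p = 0.0818, permutation test) no longer passed. Without E16 replicate 12 the microglia sum rose by 119 CPM and passed.

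Some fold changes changed sign. Csf1r was at 1.83 with DESeq2, 2.03 without E16 replicate 12 and P0 replicate 3, and 2.06 without E16 replicates 2 and 12. It was at 1.32 with markers of other cell types as a covariate and 1.79 in the Gm28438 class without E16 replicate 12. In the mt-Nd3 class it was at 2.09, and with 1 library left out at -0.43 to 1.92. In the same settings C1qa was at 1.97, 2.19, 2.34, 1.33, 2.02 (not past the threshold there), 2.11, and -0.522 to 2.06. The marker covariate, a sum of log2 levels, includes the microglia markers and so Csf1r and C1qa themselves. Their values with it are therefore no separate support for a rise. Insm1 was at 0.0547 in the Gm28438 class, Col1a1 at 0.233 in the mt-Nd3 class, Cldn11 at 0.0757 with DESeq2, and Mgp at 1.68 with DESeq2 and 0.212 with the marker covariate. The alternatives that leave out E16 replicate 12 beside another library or a class, or from the fit of 3 genotypes or the marker sums, and the age by class interaction, were chosen after seeing the data. Depth of 867748 counts in E16 replicate 7 sets the lowest level that this library can show.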
